A study of Mus musculus with 12 samples.

Results

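Nrn1, Nalcn, Brinp3, Hhip and Gdpd2 are 5 of the 21743 genes in a table of single-cell counts from mammary glands and mammary tumors of 2 Brca1-deficient mice. They were chosen from measured values of the same cells, as genes with a nervous system association that were read almost only in the tumor of the second mouse, so their difference between that tumor and the other tissues is described here and not tested. All 12 libraries come from mice that carry MMTV-Cre, a Cre recombinase driven by a mouse mammary tumor virus promoter that is active in mammary epithelium, together with Brca1 flox/flox alleles, on a mixed C57BL/6 and 129/Sv background. The groups are MG1 (gland of mouse 1, 2 libraries), MG2 (gland of mouse 2, 2 libraries), MT1 (tumor of mouse 1, 5 libraries) and MT2 (tumor of mouse 2, 3 libraries). The glands come from the tumor-bearing mice themselves, no Brca1-intact mouse was part of the comparison, and neither age nor treatment is given by the labels. Each tumor is a single tumor of a single mouse, so its libraries repeat the library and not the animal.

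The proteins are unlike each other. Neuritin, made from Nrn1, is a small protein tethered to the cell surface by a lipid anchor and is known for promoting the outgrowth of neurites. Nalcn encodes a sodium leak channel that sets the resting potential of neurons and needs partner subunits to conduct. Brinp3 belongs to a family of proteins that neurons make in response to bone morphogenetic protein and retinoic acid. Hhip is a surface protein that binds hedgehog ligands and blocks them, and its own transcription is switched on by hedgehog signaling, so it acts as a brake on the pathway. Gdpd2, also called GDE3, is a membrane enzyme that hydrolyzes glycerophosphodiesters and was described in bone-forming and neural progenitor cells.

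In the reference annotation of GRCm38.p6, the build of the deposited counts, the 5 protein-coding genes lie on 5 chromosomes. Nrn1 spans chr13:36725622-36734477 on the minus strand, Nalcn chr14:123275678-123627330 on the minus strand, Brinp3 chr1:146495629-146902472 on the plus strand, Hhip chr8:79965850-80058060 on the minus strand and Gdpd2 chrX:100729836-100738901 on the plus strand. These positions are from RefSeq. In the GENCODE annotation, 4 of the 5 (all but Nalcn) overlap a gene on the other strand. For Nrn1 this includes Fars2, which in RefSeq lies 188 kb away. Whether the counting used strand is not stated, so reads from such overlaps cannot be assigned with certainty.

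RefSeq promoter windows (250 bases before to 50 bases after a transcript start) were available for 4 of the 5 genes. They differ in base composition, with a share of G and C of 73.7% at Hhip against 48.3% at Nalcn, 44.0% to 52.3% over the 3 windows of Brinp3 and 52.0% and 60.3% at Gdpd2, where the median over 32851 promoter windows was 52.7%. The parts of the Hhip and Gdpd2 windows that lie outside annotated transcripts are shown because these genes moved in opposite directions with cycling (below) and each holds 1 motif from the list searched. Capitals mark the letters of the cyclic AMP response element, TGACGTCA, in Hhip and those of the TATA box, TATAAA, in Gdpd2. Whether either works as such an element, or has a link to cycling, was not tested.
Hhip, GRCm38.p6 chr8:80058061-80058258, minus strand: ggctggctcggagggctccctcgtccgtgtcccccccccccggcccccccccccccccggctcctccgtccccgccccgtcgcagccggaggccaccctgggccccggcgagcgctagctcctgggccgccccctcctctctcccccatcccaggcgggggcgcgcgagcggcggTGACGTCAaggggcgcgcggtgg
Gdpd2, GRCm38.p6 chrX:100729597-100729835, plus strand: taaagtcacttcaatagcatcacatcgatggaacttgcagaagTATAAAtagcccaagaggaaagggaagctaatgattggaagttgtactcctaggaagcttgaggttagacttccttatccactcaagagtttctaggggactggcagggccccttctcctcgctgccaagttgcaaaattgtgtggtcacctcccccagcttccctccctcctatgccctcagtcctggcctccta

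Both strands of each window were searched for 8 motifs. The response element of Hhip begins 75 bases before the start, and 1.79% of all windows hold this motif. The TATAAA of Gdpd2 begins 207 bases before the start, and 13.6% of all windows hold it. The TEAD letters GGAATG, present in 14.7% of all windows, were found in 2 overlapping windows of Brinp3, and E-boxes (CANNTG, in 72.3% of all windows) in Nalcn and in 1 window each of Brinp3 and Gdpd2. The GLI site GACCACCCA (0.253% of windows), AP-1 site TGANTCA (7.81%) and the parts of the RE1 site TCAGCACC (1.65%) and GGACAGC (6.56%) were not found in the windows of these genes. No motif was found at all of them.

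The libraries held 693333 to 14841414 unique molecular identifiers (UMIs, each counted once per captured RNA molecule) and medians of 1784 to 4842 UMIs per cell, and pairs of libraries shared 0 to 7 cell barcodes. Clustering placed 1113 of 21157 cells in fibroblast-like, endothelial-like or immune-like clusters, called stromal here, and 20044 outside them. Of the 9805 MT2 cells outside stromal clusters, 9773 lay in clusters 1 and 2, which held no cell of another group and met no cell type name by the marker rule. None of the 5 genes was among the 3000 variable genes used for clustering. MG1 replicate 2 had the fewest cells outside the stroma, 71, and the fewest UMIs in all, 693333. Its median per cell, 4842 UMIs, was the highest. Brca1, the targeted gene, had 0 UMIs in MG1 and averaged 2.25 CPM (UMIs scaled to a common library total) in MG2, 11.5 in MT1 and 10.5 in MT2. Because reads start at the 3′ end of the RNA, this level says nothing of the deletion itself.

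All 5 genes were read in every MT2 library, and no library of another group came near them. Levels are given in CPM over the cells outside stromal clusters. Nrn1 had 134, 114 and 119 CPM in MT2 replicates 1 to 3 (mean 122 ± 10.8, SD, n = 3). It had 0 UMIs in both MG1 libraries and in all 5 MT1 libraries, and 2 UMIs and 1 UMI in the MG2 libraries. A count of 0 allows up to 0.154 CPM over the MT1 group (3 counts), which puts MT2 at least 761-fold higher than MT1. Against the 3 UMIs of MG2 the ratio of pooled CPM was 312 (95% counting interval 107 to 1514).

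Hhip, the hedgehog antagonist, was the gene with no UMI outside MT2. It had 118, 110 and 107 CPM in the MT2 libraries (mean 112 ± 5.46, SD, n = 3) and 0 UMIs in each of the 9 libraries of the other groups. With 3 counts per group as the limit, MT2 was at least 695-fold higher than MT1, 285-fold higher than MG2 and 114-fold higher than MG1. The limit follows the depth of each group and is least strict for MG1.

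Nalcn, the leak channel, had 132, 110 and 109 CPM in MT2 (mean 117 ± 13.5, SD, n = 3) and 0 UMIs in all 5 MT1 libraries, so that MT2 was at least 728-fold higher than MT1. The glands held a few molecules. There were 2 and 3 UMIs in the MG1 libraries, the 3 in a single cell, and 7 and 5 UMIs in the MG2 libraries. The ratio of pooled CPM was 74.7 against MG2 (95% counting interval 42.8 to 145). Of the gland UMIs, 13 were in hormone-sensing-like luminal cells, 4 in MG1 (in 2 cells) and 9 in MG2. By CPM these cells did not stand apart. In MG2 they had 2.52 CPM (95% interval 1.15 to 4.78), which overlaps secretory-like cells (0.842 CPM, 0.174 to 2.46). The fibroblast-like cells of MG1, counted apart, had 4 UMIs and 7.72 CPM (2.10 to 19.8).

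Brinp3 had 244, 266 and 251 CPM in MT2 (mean 254 ± 11.5, SD, n = 3). Unlike Hhip it was read in all gland libraries, at 4.16 and 10.4 CPM in MG1 and 3.59 and 4.70 CPM in MG2, and MT2 was 55.5-fold higher than MG2 by pooled CPM (95% counting interval 39.9 to 79.6). In MT1 the 5 libraries ranged from 0 to 0.588 CPM, with 4 UMIs in all. By CPM, gland Brinp3 was highest in basal-like cells, with 12 UMIs in 106 cells of MG1 (37.9 CPM, 95% interval 19.6 to 66.2) and 17 UMIs in 218 cells of MG2 (28.9 CPM, 16.8 to 46.3). In the luminal hormone-sensing-like and secretory-like cells of the same glands it lay between 1.31 and 2.24 CPM, and the intervals of the basal-like and luminal classes did not overlap within a gland. The 44 MG2 cells in cluster 5, an unnamed cluster made mostly of MT1 cells, had 4 UMIs (16.6 CPM, 4.53 to 42.6). Their interval overlaps that of the basal-like cells of MG2.

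Gdpd2, the phosphodiesterase, had 28.1, 27.1 and 35.1 CPM in MT2 (mean 30.1 ± 4.36, SD, n = 3) and was the gene with the smallest contrast between the tumors. MT1 averaged 1.05 CPM (libraries from 0.784 to 1.18, n = 5) and the glands 1.49 CPM in MG1 and 1.19 CPM in MG2, and the MT2 level was 28.04-fold that of MT1 by pooled CPM (95% counting interval 18.2 to 45.9). Of its 20 UMIs in MT1, 19 were in cluster 5, an unnamed cluster led by Prl2c3 and Cav1 (1352 MT1 cells, 4.95 CPM, 95% interval 2.98 to 7.73). In MT1 cluster 3, with 3524 cells, there was 1 UMI.

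**Figure D1:**
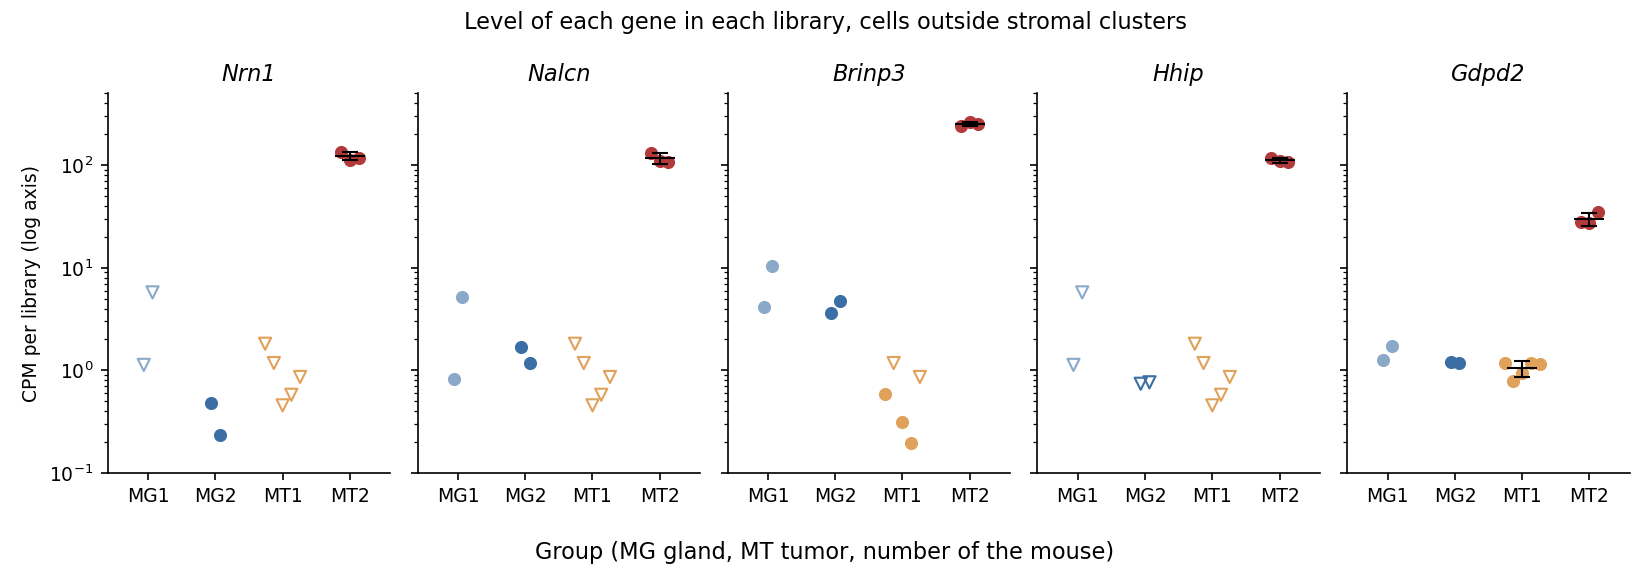
CPM of each gene (log axis) in each library, by group, over cells outside stromal clusters. Filled circles are libraries with UMIs, open triangles mark the limit of 3 counts in libraries with 0 UMIs, and black lines are mean ± SD in groups of 3 or more libraries without a 0. The 3 MT2 libraries stand above all 9 others for every gene, and Hhip has only open triangles outside MT2.

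The share of cells with a UMI followed depth. Without thinning, Nrn1 was seen in 40.2% (95% Clopper-Pearson interval 38.3 to 42.2), 23.03% (21.8 to 24.3) and 34.4% (32.5 to 36.2) of the cells of MT2 replicates 1 to 3, and Brinp3 in 62.0%, 46.6% and 59.7%. Replicate 2 had the lowest share for each gene, and its cells also had the lowest median depth, 2329 UMIs against 4632 and 3900. After thinning every cell to 1000 UMIs the libraries drew together. The shares became 10.99% ± 0.949 for Nrn1, 10.8% ± 1.26 for Nalcn, 20.8% ± 0.916 for Brinp3, 9.64% ± 0.230 for Hhip and 3.32% ± 0.848 for Gdpd2 (SD, n = 3). In the other groups the mean thinned share of any of the 5 genes was at most 1.12%, for Brinp3 in MG1.

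Most MT2 cells carried at least 1 of the 5 genes. Unthinned, 87.6%, 73.5% and 83.8% of cells in MT2 replicates 1 to 3 had a UMI of 1 or more, and 28, 14 and 28 cells had all 5. In the other groups the share with 1 or more was 0.247% to 0.375% over the MT1 libraries, 2.44% and 2.59% in MG2, and 2.18% and 11.3% in MG1. The 11.3% is 8 of the 71 cells of MG1 replicate 2, the library with the highest median depth per cell. Outside MT2 and the stroma, 2 cells held 2 or more of the genes, both in MG2 replicate 2.

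To ask whether the genes were seen in the same cells, the odds of seeing a pair were computed within 5 strata of UMIs per cell in each MT2 library. Each pair among Brinp3, Nalcn and Gdpd2 was seen together more often than independent detection within strata would give, in every library. Depth still varies within a stratum, and its part in the ratios was not tested. The stratified odds ratio was 1.44, 1.68 and 1.70 for Nalcn with Gdpd2, 1.47, 1.61 and 1.97 for Brinp3 with Gdpd2 and 1.31, 1.48 and 1.72 for Nalcn with Brinp3 (each in order of size). Nrn1 had ratios between 1.09 and 1.49 with these 3 genes. The ratio of Hhip was 0.733 to 0.903 with Gdpd2, 0.955 to 0.975 with Brinp3, 0.818 to 1.02 with Nalcn and 1.012 to 1.22 with Nrn1. Since the genes differ by cycling (below), the ratios were also taken within cycling and noncycling cells. The pairs among Nalcn, Brinp3 and Gdpd2 stayed above 1 in each library in both classes (1.17 to 2.62). Those of Nrn1 were less even in cycling cells, from 0.583 to 1.26 with Gdpd2 and from 0.912 to 1.42 with Brinp3. Hhip with Brinp3 lay on both sides of 1 in cycling (0.814 to 1.003) and noncycling cells (0.944 to 1.10). Hhip with Gdpd2 ran from 0.615 to 1.002 in cycling cells and from 0.762 to 0.954 in noncycling cells.

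The ratios were lower once depth was stratified. Without strata, 29 of 30 odds ratios were above 1 (median 1.51), and with strata 23 of 30 (median 1.23). After thinning to 1000 UMIs, 9.44%, 8.36% and 8.76% of cells in replicates 1 to 3 held exactly 2 of the genes, against 8.87%, 7.98% and 8.53% if detection were independent. The excess did not hold for cells with exactly 3 of the genes. Their share was below the independent value in replicates 1 and 2 and above it in replicate 3. The counts are sparse, the cells of a library are not replicates, and the ratios are given as a description.

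**Figure D2:**
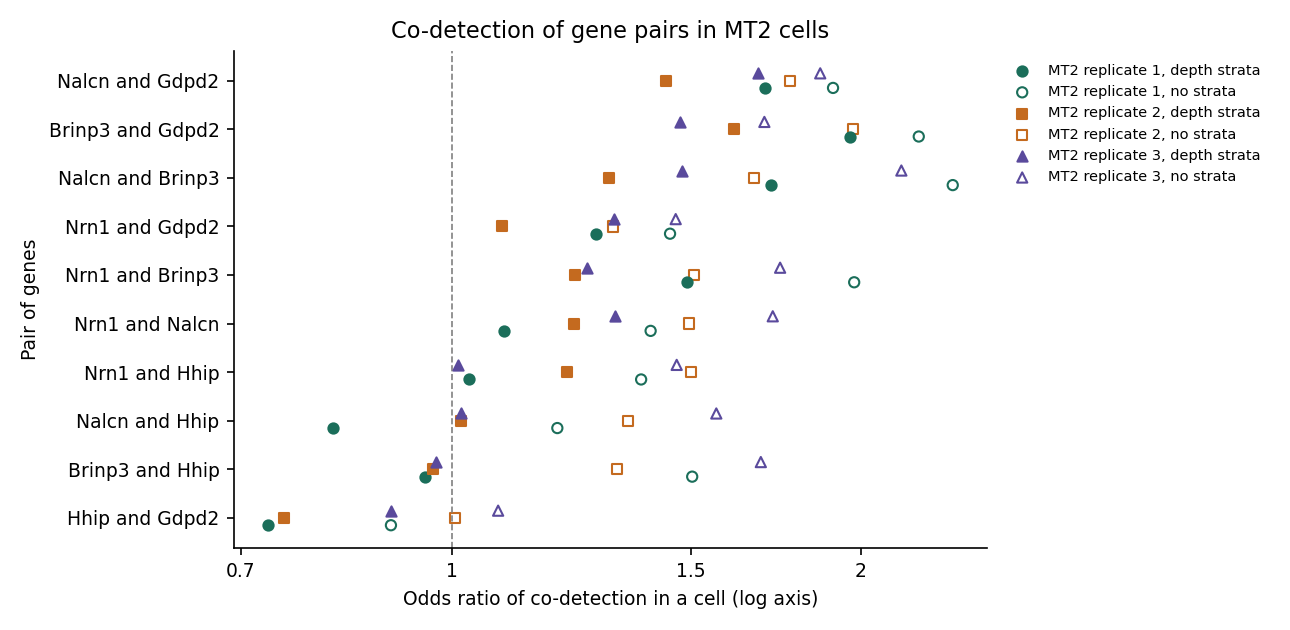
Odds ratio of seeing both genes of a pair in a cell (log axis) for the 10 pairs, in MT2 cells outside stromal clusters. Filled symbols are Mantel-Haenszel ratios over 5 depth strata and open symbols are ratios without strata, with a shape and color for each library, and the dashed line marks 1. The pairs among Nalcn, Brinp3 and Gdpd2 lie highest and the pairs of Hhip with Gdpd2 and Brinp3 lie below 1 once depth is stratified.

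The tie to the cell cycle was tested, since the level in MT2 as a whole does not fix it. MT2 cells outside stromal clusters were thinned to 500 UMIs and called cycling when they held 2 or more UMIs over 20 S, G2 and M phase genes, none of them a gene of interest here. This gave 660, 1666 and 623 cycling cells in replicates 1 to 3 (26.6%, 35.4% and 23.8%), and 3275 of 9805 cells (33.4%) had 1 or 2 such UMIs and so lay next to the threshold. Summed counts of the classes were compared with edgeR's quasi-likelihood test with the library as block. Over 12321 genes, 14.9% were called higher and 12.5% lower in cycling cells (Benjamini-Hochberg adjusted p under 0.05). Of the 5 genes, 4 were lower in cycling cells and 1, Hhip, was higher.

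Gdpd2 fell most. It had 8.84, 16.5 and 12.7 CPM in the cycling cells of replicates 1 to 3 and 35.3, 31.7 and 42.5 CPM in the noncycling cells, and the classes did not overlap. The log2 fold change was -1.52 (SE 0.13, edgeR adjusted p 4.08e-10), a level 2.86 times as high in noncycling cells. Of 1542 genes called lower in cycling cells, 31 had a larger fall. Along the number of proliferation UMIs its mean went from 41.2 CPM at 0 UMIs to 25.8 at 1, 15.2 at 2, 12.6 at 3 to 4 and 7.18 at 5 or more.

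Nalcn fell in each library, from 143, 120 and 117 CPM in noncycling cells to 89.1, 80.5 and 77.4 CPM in cycling cells (log2 fold change -0.64, SE 0.06, edgeR adjusted p 2.84e-10). Nrn1 went from 141, 115 and 127 to 98.3, 98.7 and 85.2 CPM (log2 fold change -0.45, SE 0.06, edgeR adjusted p 1.10e-06). Its call was lost when the class was set by S phase genes alone (log2 fold change -0.24, edgeR adjusted p 0.0908). Brinp3 fell least, from 252, 268 and 258 to 189, 233 and 211 CPM (log2 fold change -0.32, SE 0.04, edgeR adjusted p 1.16e-06).

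Hhip moved the other way. It had 131, 118 and 125 CPM in the cycling cells of replicates 1 to 3 against 102, 97.8 and 95.6 CPM in noncycling cells, with no overlap (log2 fold change 0.32, SE 0.05, edgeR adjusted p 2.59e-05). Its mean rose from 92.6 CPM in cells with no proliferation UMI to 150 CPM in cells with 5 or more. Without the library block the size was unchanged for Hhip (0.32) and Brinp3 (-0.32) but neither call held (edgeR adjusted p 0.0970 and 0.110).

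These are shares of a cell's RNA, and cycling cells held more of it. The median UMIs per cell were 6096, 2512 and 5169 in the cycling cells of replicates 1 to 3 and 4530, 2248 and 3846 in noncycling cells. Counted per cell, Brinp3 was nearly equal between the classes, with 133, 72.3 and 125 UMIs per 100 cycling cells and 134, 74.9 and 122 per 100 noncycling cells. Gdpd2 was lower per cell in cycling cells as well (6.21, 5.10 and 7.54 against 18.7, 8.86 and 20.1 UMIs per 100 cells), and Hhip was higher (92.1, 36.7 and 74.3 against 54.4, 27.3 and 45.2). Nrn1 and Nalcn lay between, lower per cell in cycling cells of each library.

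**Figure D3:**
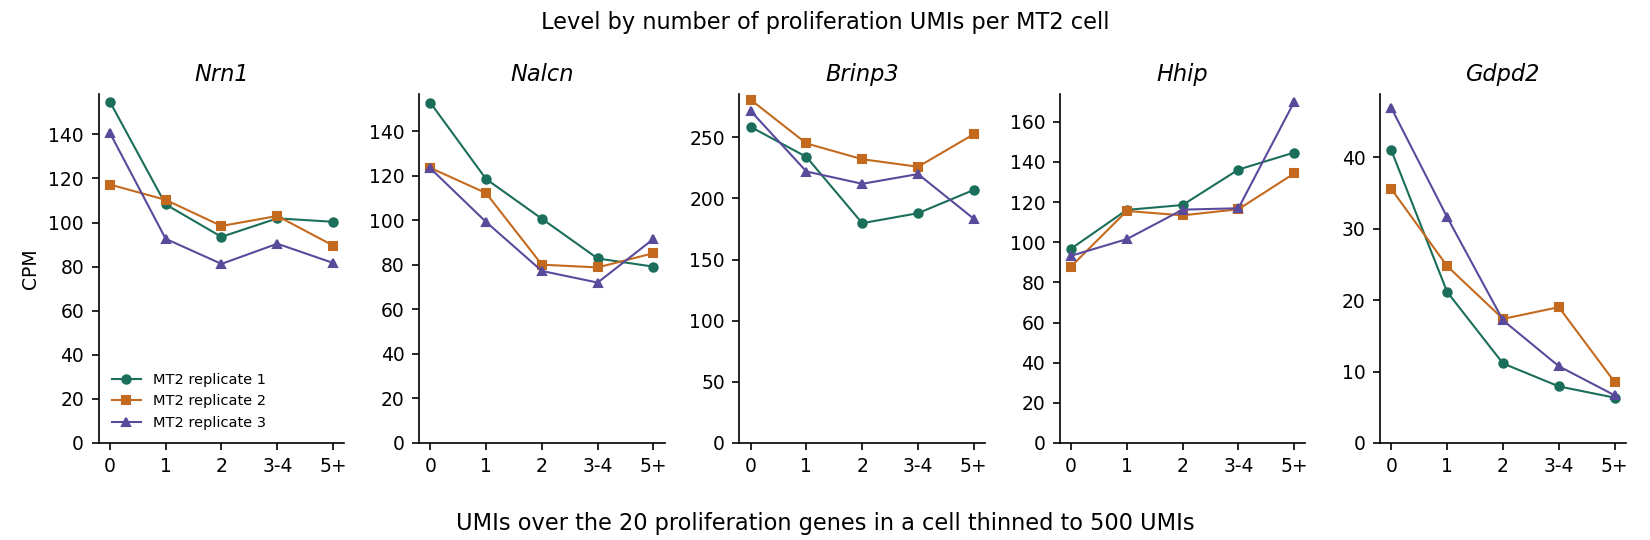
CPM of each gene in MT2 cells outside stromal clusters, by the number of UMIs over 20 proliferation genes in a cell thinned to 500 UMIs, with 1 line per library and axes that start at 0. Gdpd2 falls from 35.6 to 46.9 CPM at 0 UMIs to 6.34 to 8.53 CPM at 5 or more, and Hhip is the gene whose lines rise.

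All 20 genes of the score rose in cycling cells, which the choice of the classes fixes. Outside the score and among genes with 200 or more UMIs, the most changed genes called in the same test were Ifit1 (log2 fold change 2.78, SE 0.28, edgeR adjusted p 3.95e-09) and Oasl1 (2.57, SE 0.45, 4.79e-05), genes of the interferon response, and Kif2c (2.56, SE 0.16, 3.38e-13), a mitotic kinesin. At the other end were the hemoglobin genes Hbb-bs (-4.33, SE 0.35, 7.00e-11) and Hba-a1 (-2.74, SE 0.36, 7.10e-07) and the glycosyltransferase gene Galnt3 (-3.15, SE 0.72, 0.00132).

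The clusters of MT2 differed in the same directions, given as a description, since clustering used the same cells. Cluster 1 (5823 cells, led by Grem1, Ptgs2 and Fn1, with Nalcn, Gdpd2 and Nrn1 also among its 10 leading genes) had 44.0 CPM of Gdpd2, 140 of Nalcn, 140 of Nrn1, 275 of Brinp3 and 93.8 of Hhip. Cluster 2 (3950 cells, led by Cenpe, Top2a and Cenpf) had 10.7 CPM of Gdpd2, 79.8 of Nalcn, 90.7 of Nrn1, 206 of Brinp3 and 124 of Hhip.

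Stromal cells of MT2 were read for the same genes, 290 fibroblast-like, 174 immune-like and 45 endothelial-like cells. The tissue had been enriched for epithelial cells before capture, so these are the stromal cells that were left. All 5 genes were read in the fibroblast-like and immune-like cells of MT2, while the fibroblast-like cells of MT1 had 0 UMIs of Nrn1, Nalcn, Hhip and Gdpd2. Nrn1 stood at 33.3 CPM in fibroblast-like and 35.5 CPM in immune-like cells, which is 28.3% and 30.2% of its level in clusters 1 and 2. Hhip stood at 28.8% and 40.0% of that level and Nalcn at 26.6% and 36.6%. The immune-like values rested on replicate 2, where Nalcn had 0, 99.3 and 9.44 CPM and Hhip 8.20, 89.3 and 18.9 CPM in replicates 1 to 3. Without replicate 2 (left out after seeing the data) the immune-like cells stood at 5.16% of the cluster level for Nalcn, 13.8% for Hhip and 19.7% for Nrn1, and the fibroblast-like cells at 16.4%, 21.96% and 19.5%. In shares of cells, Nrn1 had a UMI in 7.93% of fibroblast-like and 7.47% of immune-like cells (median depths 2477 and 2287 UMIs), against 32.3% in cluster 1 (2956 UMIs). The same ratio was taken for 13 other genes abundant in clusters 1 and 2 and nearly absent outside MT2. Its median was 29.5% in fibroblast-like cells (10.8% to 49.2%) and 45.2% in immune-like cells (5.96% to 1173%). A low level in the stroma was thus not particular to these genes. Free RNA in the droplets and doublets of tumor and stromal cells were not removed, and their part in these low levels was not tested.

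Brinp3 differed from the others in the fibroblast-like cells. It had 215, 275 and 226 CPM in the fibroblast-like cells of MT2 replicates 1 to 3, within the range of clusters 1 and 2 of the same libraries (188 to 287 CPM). Over the 3 libraries its level was 96.5% of that in clusters 1 and 2 (95% counting interval 83.7 to 111), where the other 4 genes stood at 26.6% to 43.7%. Leaving out any 1 library gave 92.6% to 99.2% for Brinp3. In the immune-like cells Brinp3 was at 37.5% of the cluster level, where the other genes stood at 30.2% to 40.0%, and its libraries were uneven as well, at 16.4, 144 and 84.9 CPM (25.2% of the cluster level without replicate 2).

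The share of Brinp3 among the UMIs of all 5 genes was also taken per class. It was 37.1%, 42.5% and 40.5% in clusters 1 and 2 of replicates 1 to 3. In fibroblast-like cells it was 77.9% (95% Clopper-Pearson interval 68.2 to 85.8), 58.4% (48.8 to 67.6) and 72.2% (61.8 to 81.1), higher in each library with intervals that excluded the cluster value. In immune-like cells, over all 3 libraries, it was 41.5% (32.5 to 51.0) of 118 UMIs. These intervals cover counting error only.

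In an unplanned split, the fibroblast-like cells that held no UMI of the other 4 genes were taken apart. They were 241 of the 290, with 233 CPM of Brinp3 and a UMI in 42.3% of cells (95% interval 36.0 to 48.8). Their shares were 42.9%, 42.4% and 41.7% in replicates 1 to 3. The other 49 cells had 240 CPM and a UMI in 53.1% (38.3 to 67.5). They were deeper, with a median of 3441 UMIs against 2325, so the shares are not at equal depth. Fibroblast-like cells of the other groups held fewer Brinp3 molecules, with 6 UMIs in 133 cells of MT1 (19.6 CPM, 95% interval 7.20 to 42.7), 2 in 136 cells of MG2 (5.62 CPM) and 1 in 126 cells of MG1 (1.93 CPM).

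The fibroblast-like cluster was named from 10 fibroblast markers, so their high level in it follows from the naming. All 10 were read in its MT2 cells, at a summed 36641 CPM. Clusters 1 and 2 also read all 10, at 3666 CPM. Of the 9 epithelial markers, Epcam, Cdh1, Krt19 and Cldn4 were at 0 in the fibroblast-like cells and the other 5 were read. Whether some of these cells are mesenchymal tumor cells was not tested. The 9 epithelial markers summed to 236 CPM there and to 748 CPM in clusters 1 and 2.

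**Figure D4:**
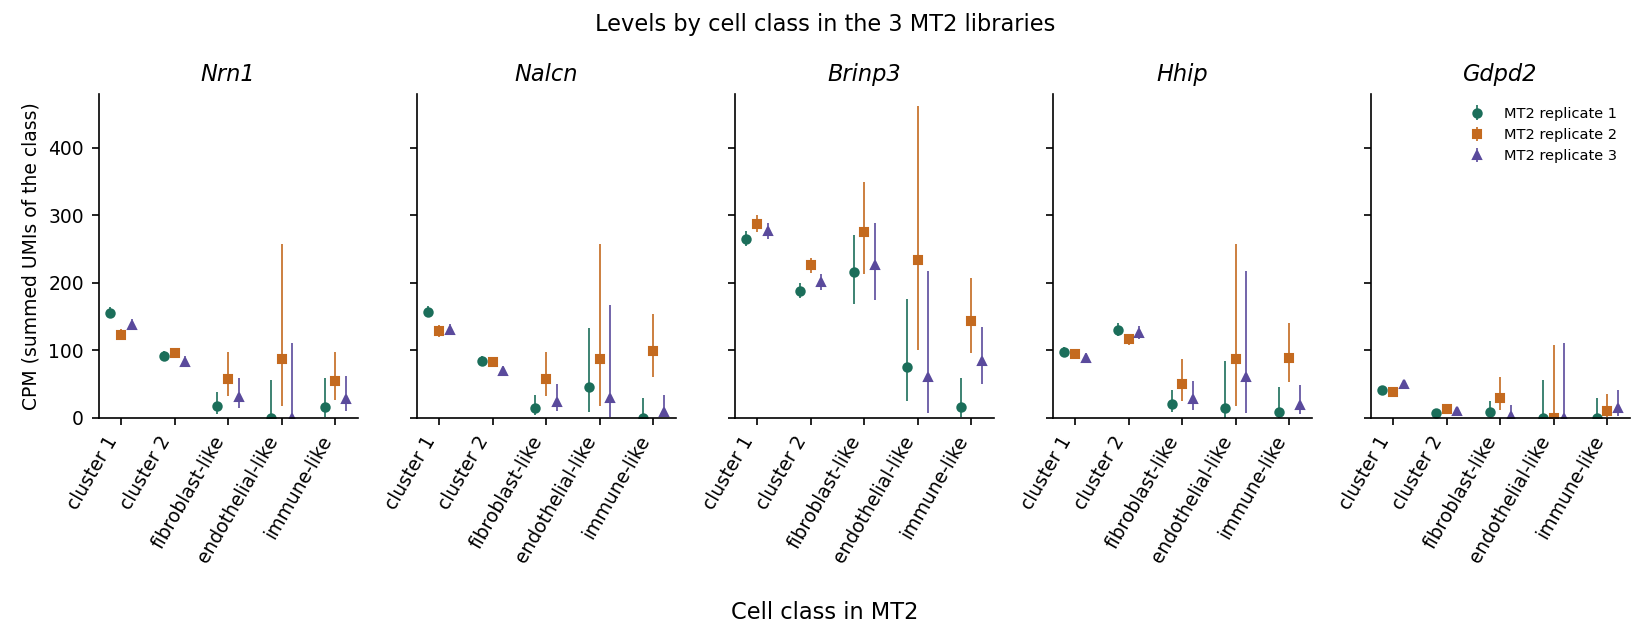
CPM of each gene in clusters 1 and 2 and in the stromal classes of each MT2 library, with 95% Poisson intervals that cover counting error only. Brinp3 in fibroblast-like cells, at 215 to 275 CPM, lies level with the tumor clusters. In these cells Nrn1, Nalcn and Hhip lie below both clusters in each library. Gdpd2, at 8.74, 29.1 and 3.48 CPM in replicates 1 to 3, lies between the 2 clusters in replicates 1 and 2 and below both in replicate 3.

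The neural label of the group was set beside marker lists, since the genes were named for where they are best known. Of 15 neuronal markers in the table, 5 (Snap25, Syt1, Rbfox3, Stmn2 and Dcx) had 0 UMIs in MT2 outside the stroma. The markers summed to 490 CPM in MT2 against 99.03 in MT1, 90.6 in MG2 and 76.2 in MG1, and Ncam1, a cell adhesion gene also made outside neurons, supplied 478 CPM of it. Of 7 neuronal markers tested between MT2 and MG2, 3 were called higher (Ncam1, Eno2 and Tubb3) and 1 lower (Map2), where edgeR called 32.7% of 13643 genes higher and 34.3% lower. Between MT2 and MT1, 2 were higher (Ncam1 and Eno2) and 4 lower (Stmn2, Gap43, Map2 and Tubb3), where 33.1% of genes were called higher and 35.3% lower. The p-values of these contrasts cover the spread between libraries of single animals.

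Ncam1 had 553, 394 and 488 CPM in MT2 and 1.73 to 26.6 CPM elsewhere (log2 fold change against MG2 4.54, SE 0.24, edgeR adjusted p 1.30e-11). Map2, which encodes a neuronal microtubule protein, went the other way, with 1.26 CPM on average in MT2 and 47.8 to 63.3 in the other groups (log2 fold change against MG2 -5.62, SE 0.31, edgeR adjusted p 2.01e-11).

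Of 10 glial, Schwann and neural crest markers tested, 2 were higher in MT2 than in MG2 (Pax3 and Mitf) and 6 lower (Tfap2b, Erbb3, Cdh19, Sox10, Mbp and Nes). Over all genes 32.7% were higher and 34.3% lower. Against MT1, 1 was higher (Mitf) and 8 lower, with 33.1% and 35.3% over all genes. Sox10, the neural crest factor, averaged 0.279 CPM in MT2 and 48.6 in MG2, and Mitf had 50.9, 49.9 and 45.0 CPM in the MT2 libraries against at most 6.46 elsewhere. The median log2 fold change of the list was -2.43 against MG2, where that of all genes was -0.05. Several of the lower markers were read in the glands and in MT1, such as Sox10 at 34.4 CPM in MG1 and 63.8 in MT1. A lower level in MT2 than in those tissues is thus no test of a neural cell type. The genes are called by their names here, and a neural identity of the MT2 cells was not tested.

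Hhip is a known target of hedgehog signaling, and the other tested genes of the pathway went in both directions. Of 21 listed genes 18 were analysed here and 11 tested. Against MG2, 7 were higher in MT2 (Disp1, Gas1, Gli3, Gpr161, Sufu, Smo and Hhat) and 3 lower (Boc, Cdon and Spop), with a median log2 fold change of 0.91, where 32.7% of all genes were higher and 34.3% lower. Against MT1, 4 were higher (Gas1, Smo, Disp1 and Gli3) and 3 lower (Boc, Spop and Ptch1), with a median of 0.17, shares close to the 33.1% and 35.3% over all genes.

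Dhh, a hedgehog ligand gene, had 0 UMIs in MT2 and 3 in MT1. Ptch1, the receptor that is itself a target of the pathway, had 7.22, 5.35 and 5.34 CPM in MT2 and 8.23 to 10.8 CPM over the MT1 libraries, and was lower in MT2 (log2 fold change -0.67, SE 0.19, edgeR adjusted p 0.00509). Against MG2 it did not pass the test (0.37, SE 0.28, edgeR adjusted p 0.251). Gli2 had 22 UMIs in MT2.

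Gas1, a co-receptor for hedgehog ligands, had 65.2, 43.4 and 66.9 CPM in MT2 and 10.6 to 14.8 CPM over the MT1 libraries (log2 fold change 2.20, SE 0.19, edgeR adjusted p 1.12e-08). Boc, another co-receptor, was at 0.810 to 0.943 CPM in MT2 and 4.95 to 9.99 CPM in MT1 (-2.91, SE 0.29, 5.77e-08). Smo, the signal transducer, averaged 25.4 CPM in MT2 and 8.62 in MT1 (1.47, SE 0.17, 5.53e-07), and Gli3, a transcription factor of the pathway, 23.8 and 15.2 CPM (0.63, SE 0.16, 0.00198). In the cycling test 1 of 11 pathway genes was called, where 14.9% of all genes were called higher and 12.5% lower. The gene was Gas1, lower in cycling cells (-0.80, SE 0.08, edgeR adjusted p 8.04e-09), the opposite sign to Hhip.

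The NALCN channel works with the subunits UNC79, UNC80 and a FAM155 protein. Of 11 genes of the complex and its regulators 4 were analysed here, and 3 of them (Unc80, Chrm3 and Tacr1) had 0 UMIs in MT2 outside the stroma. Unc80 had 24 UMIs in MT1 and 5 in MG2, where Nalcn had 0 and 12. Chrm3, a muscarinic receptor that acts on the channel, was lower in MT2 than in MG2 (12 UMIs there, edgeR adjusted p 1.42e-05) and than in MT1 (57 UMIs, 5.91e-08). Its call against MG2 was lost in a fit of only the groups of that contrast. Src averaged 24.5 CPM in MT2, 24.9 in MG2 and 26.9 in MT1 and passed neither test.

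Of 8 listed relatives of the genes 6 were analysed here and 4 tested, all of them relatives of Gdpd2. All 4 were lower in MT2 than in MG2 (Gdpd3, Gdpd5, Gde1 and Gdpd1), where 34.3% of all genes were lower, and 3 (Gdpd5, Gdpd3 and Gdpd1) were lower than in MT1, where 35.3% were. Without MG2 replicate 2 the first count was 2. The second was 1 without MT1 replicate 2, MT1 replicate 3 or MT2 replicate 1, and 2 without any other single library of the contrast. Gdpd3 averaged 0.129 CPM in MT2 and 47.2 in MG2 (log2 fold change -8.31, SE 0.73, edgeR adjusted p 1.33e-08), opposite to Gdpd2. Nrn1l, the close relative of Nrn1, had 6 UMIs in MT2 and 0 elsewhere, and Brinp1 had 23 UMIs in MG2 and 0 in the other groups.

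The nearest genes on the chromosome were read next. Of 47 protein-coding neighbours (5 on either side where the chromosome order held them), 34 were analysed here and 28 tested. Against MG2, 11 were higher and 9 lower in MT2, where 32.7% of all genes were called higher and 34.3% lower. Against MT1, 11 were higher and 10 lower, where the shares over all genes were 33.1% and 35.3%. F13a1, a coagulation factor subunit gene 133 kb from Nrn1, had 7.66, 9.55 and 8.72 CPM in MT2 and 0 UMIs in the 9 other libraries. It was also read in the immune-like cells of MT2, at 41.1 CPM against 10.4 in cluster 1.

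Beyond Brinp3, at a distance of 2927 and 3198 kb, lie Pla2g4a and Ptgs2, which release arachidonic acid and turn it into prostaglandins. Pla2g4a had 202, 241 and 186 CPM in MT2 and 5.18 to 35.2 CPM elsewhere (log2 fold change against MG2 2.65, SE 0.29, edgeR adjusted p 1.94e-07). Ptgs2 had 2207, 1708 and 2142 CPM in MT2 and 5.18 to 138 CPM elsewhere (6.18, SE 0.31, 6.13e-12). Neighbours of 1 gene did not all go the same way. Near Nrn1, Cdyl, Rreb1 and Cage1 were lower in MT2 than in either MG2 or MT1. Rgs2, near Brinp3, was lower than in MG2 and higher than in MT1. Near Hhip, Otud4 and Abce1 were higher than in either group and Gab1 was lower. Tmtc4 and Ggact, on one side of Nalcn, were lower in MT2 than in either MG2 or MT1, and Itgbl1, 32.6 kb away on the other side, had 2 UMIs in MT2. Kif4, a mitotic kinesin gene 2.57 kb from Gdpd2, was higher in MT2 than in MG2 (log2 fold change 3.31, SE 0.34, edgeR adjusted p 1.32e-07). Pdzd11 and Snx12, also near Gdpd2, were higher than in MG2 (log2 fold change 1.68 and 1.88) and than in MT1 (0.97 and 0.69). Dlg3, on the side of Gdpd2 away from Kif4, passed neither test (20.2 CPM in MT2 and 22.5 in MG2), and nor did Foxo4.

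Over the 12 libraries, the genes with a profile most like the mean of the 5 (Pearson r of log2(CPM + 1), among 11754 genes with 200 or more UMIs) were Lrp1 (0.992), Emilin2 (0.992), Mtpn (0.991), Nlrp3 (0.991) and Tlr7 (0.9899). The libraries fall into MT2 and the rest, so these values mostly restate that separation, and 232 genes had a value above 0.95. By single gene the closest were Nlrp3 and Tlr7 for Nrn1, Lhfpl4 and Lrp1 for Nalcn, Hgf and Il1r1 for Brinp3, Tlr7 and Lrrc4c for Hhip, and Gm15056 and Diras2 for Gdpd2. Emilin2 averaged 131 CPM in MT2 and at most 1.94 CPM in another group, and Hgf, the growth factor gene nearest to Brinp3, 87.8 CPM in MT2 and 10.8 and 13.4 CPM in the glands.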

How the data were processed

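Drop-seq libraries were made from dissociated mammary glands and tumors after enrichment for epithelial cells. The authors processed reads with the Drop-seq workflow, aligned them with STAR to Ensembl GRCm38.p6, filtered cells, and deposited raw UMI counts for 21743 genes in 21157 cells. The version of STAR and the use of strand are not given in the sources used here. Libraries were told apart by the suffix of each cell name and numbered in accession order.

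Members and gene lists were chosen with earlier results of these data known. Cells were clustered with scanpy 1.11.5 (3000 variable genes, 30 components, 20 neighbours, resolution 0.6), and clusters were named from fixed marker lists with 3 or more markers. Doublets were not removed. Leaving out the 5% of cells with most UMIs was an alternative. CPM are counts scaled by the TMM-adjusted total of each library. Under R 4.3.3, edgeR 4.0.16 compared the summed counts (filterByExpr, quasi-likelihood, Benjamini-Hochberg, threshold 0.05), with DESeq2 1.42.0 as an alternative, and the scripts were tested on simulated data. The fit across tissues used all 12 libraries in 4 groups, and the cycling fit used 6 sums from MT2. All 5 genes passed the count filter in both. Intervals are exact 95% Clopper-Pearson (shares) or Poisson (counts), 3 counts set the limit where no UMI was seen, and all cover counting error only. Cells were thinned by drawing UMIs without replacement. Genes named are the 5, those of the lists that were called or at 0, 5 neighbours on either side, the genes most alike, and the 3 most changed each way outside the score in the cycling test (200 or more UMIs). The labels give no library batch, so batch and group cannot be told apart. Some genes of the lists and neighbourhoods are not reported here.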

Additional observations from a re-analysis of the deposited data

How the results depend on the processing

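Over 15 alternatives of the cycling test, all 5 genes kept their direction, with log2 fold changes from -1.88 to -0.91 for Gdpd2, -0.70 to -0.51 for Nalcn, -0.57 to -0.24 for Nrn1, -0.43 to -0.20 for Brinp3 and 0.30 to 0.37 for Hhip. Calls were lost for Nrn1 with S phase genes alone (-0.24) and for Brinp3 (-0.32) and Hhip (0.32) with no library block. The cycling test called 1834 genes higher and 1542 lower, and 848 and 420 by DESeq2, 788 and 522 with S phase genes alone, and 628 and 240 with no library block; the cause was not tested. Without a library in turn the log2 fold change ranged from -1.88 to -1.32 for Gdpd2 and from 0.30 to 0.35 for Hhip.

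The share of MT2 cells with a UMI followed the thinning depth by construction. It was 5.80% thinned to 500 UMIs and 32.5% unthinned for Nrn1, 5.35% and 34.6% for Nalcn, 11.2% and 56.1% for Brinp3, 5.02% and 31.3% for Hhip, and 1.70% and 10.8% for Gdpd2. Mean levels in MT2 moved by less than the spread between libraries under every alternative run. Counts over all genes called between tissues stayed within 1.5 times of the reported counts under the alternatives run. Counts within lists moved further, with neuronal markers lower than in MG2 going from 1 to 2 (DESeq2, all cells, no low-count filter, only the groups of the contrast), NALCN genes lower than in MG2 from 1 to between 0 and 3, NALCN genes lower than in MT1 from 1 to 3 and hedgehog genes lower than in MT1 from 3 to 5 (both with no low-count filter). Each tissue comes from 1 mouse, so the spread between animals was not measured, and depth limits what can be said of MG1.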
